A study of Mus musculus with 9 samples.

Results

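The genes described here are 10 components and transcriptional readouts of bone morphogenetic protein (BMP) signalling, listed by gene symbol: Id1, Id2, Id3, Id4, Smad6, Smad7, Bmp4, Msx1, Msx2 and Bambi. All 10 had a row among the 24411 genes of each table, and all 10 passed the filter on low counts that left 14300 genes for testing. RNA was measured in EB5 mouse embryonic stem cells, male cells of 129Ola origin derived from E14tg2a that carry the Oct3/4IRES-BSD-pA/+ allele, in which a blasticidin resistance gene is read from 1 copy of Oct3/4. They were kept in medium with serum and leukemia inhibitory factor on gelatin. Parental cells had neither target deleted, Zfp352-KO cells had Zfp352 deleted with CRISPR-Cas9, and Zfp352/Zfp353-DKO cells (here DKO) had both genes deleted, with 3 libraries per genotype. How many clones stand behind each genotype is not given in the sources used here, and the labels do not say that libraries came from separate cultures, so p-values measure the spread between these libraries only.

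BMP ligands bind paired type I and type II serine/threonine kinase receptors. The receptors phosphorylate SMAD1, SMAD5 and SMAD9, which join SMAD4 and bind target genes in the nucleus. The ID genes are the classic direct targets. ID proteins are helix-loop-helix proteins without a DNA-binding region, and they hold E proteins and their partners away from DNA. In mouse embryonic stem cells grown in serum and leukemia inhibitory factor, BMP signalling and ID proteins are known for restraining neural differentiation. SMAD6 and SMAD7 are inhibitory SMADs that feed back on the receptors, SMAD7 also on TGF-beta and NODAL signalling, and BAMBI is a decoy receptor without a kinase domain.

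Promoter windows from RefSeq (GRCm38.p6, the assembly called mm10) were found for 7 of the 10 genes: Id2, Id3, Id4, Smad6, Bmp4, Msx1 and Msx2. Each window ran from 250 bases before to 50 bases after the annotated start site. It was searched on both strands for the word GGCGCC, a GC-rich word bound by SMAD1 and SMAD5. It was also searched for a composite BMP response element. That element begins with a looser form of the word, GNCGNC, so the searches can overlap. After a spacer of 5 bases of any kind it ends with the SMAD4 word GTCT. The stretches below, all before the start site and written 5′ to 3′ on the gene's strand, show where these letters occur (in capitals) in genes of the set and, for Id3, a member lower in both edited genotypes, a stretch with neither.
Smad6, chr9:64022060-64022209, minus strand: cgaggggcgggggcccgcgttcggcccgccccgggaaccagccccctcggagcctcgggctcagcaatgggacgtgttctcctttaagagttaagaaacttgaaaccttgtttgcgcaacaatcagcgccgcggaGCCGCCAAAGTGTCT
Id3, chr4:136143672-136143821, plus strand: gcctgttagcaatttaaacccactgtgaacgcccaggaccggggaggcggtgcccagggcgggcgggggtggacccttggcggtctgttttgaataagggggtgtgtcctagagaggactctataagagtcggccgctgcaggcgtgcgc
Id2, chr12:25096273-25096332, minus strand: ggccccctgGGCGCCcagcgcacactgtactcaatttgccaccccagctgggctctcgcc
Id4, chr13:48260936-48260995, plus strand: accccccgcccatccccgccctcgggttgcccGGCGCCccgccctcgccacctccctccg

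The composite element occurred in the Smad6 window, with its first base at -15 and its last at -1 from the start site, and in none of the other 6. Among all 32851 promoter windows 0.667% held it, and 1.3% of the 10758 windows of tested genes did. GGCGCC occurred at -231 in the Id2 window and at -148 in the Id4 window, against 11.9% of all windows and 21.7% of those of tested genes. These matches describe letters in a short window, and no binding was measured. On the same assembly the gene bodies annotated for the members described most below are at chr2:152736251-152737410 (Id1), chr4:136143822-136145392 (Id3), chr9:63953076-64022085 (Smad6) and chr14:46383525-46390669 (Bmp4). The Smad6 gene body reaches past the start site of the window used, so the composite element lies before that start site but inside the annotated gene, downstream of its outermost start.

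The libraries held between 16599004 and 22044820 expected counts. Libraries of 1 genotype differed by more than sampling noise (chi-square per degree of freedom from 2.50 to 7.06 over the 9 pairs). As a check of the labels, Zfp352 had expected counts of 47, 52 and 41 in Parental, 3, 8 and 10 in Zfp352-KO and 1, 1 and 3 in DKO libraries. The stem cell markers Pou5f1, Nanog, Sox2, Esrrb, Zfp42 and Klf4 summed to between 3284 and 3445 TPM (a transcript level scaled for length and depth) in every library. Of these 6 genes Sox2 was called higher in DKO cells (351.8 ± 5.48 TPM in Parental and 413.8 ± 20.5 in DKO, SD, n = 3; log2 fold change 0.19, edgeR adjusted p = 0.0113), in all 18 alternatives too. Libraries also differed in how values moved with transcript length. Each library's log2 CPM (depth-scaled counts) was centred on the 9-library mean and set against length across genes. Spearman's rho was -0.307, -0.402 and -0.0813 in Parental libraries 1 to 3. It was 0.391, 0.189 and -0.0655 in Zfp352-KO and -0.127, -0.0218 and 0.362 in DKO libraries. Genes are not independent replicates, and no p was attached.

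In Parental cells Id3 stood highest at 101 ± 3.81 TPM (SD, n = 3), followed by Id1 at 67.7 ± 6.44 and the ligand gene Bmp4 at 61.8 ± 1.50. Id1 and Bmp4 overlapped between libraries and do not differ in order beyond their spread. Id2 (18.3 ± 2.07) and Smad7 (15.5 ± 0.657) came next, followed by Smad6 (5.81 ± 0.194) and Id4 (4.51 ± 0.400). Bambi (2.01 ± 0.190) has a long mRNA of 5040 bases. Its expected counts summed to 342 over the 3 Parental libraries, against 246 for Id4. The homeobox genes Msx2 (1.72 ± 0.150) and Msx1 (0.923 ± 0.222) were near the low end of detection. Msx1 rested on 58.56 expected counts summed over the 3 Parental libraries, against 3050 for Id3.

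Compared with Parental cells, the called members differed by at most 0.37 on the log2 scale. A gene was called where the quasi-likelihood test of edgeR, adjusted by Benjamini-Hochberg over all tested genes, gave an adjusted p under 0.05. On that rule Id1, Id3, Smad6 and Smad7 were lower in Zfp352-KO cells, and Id3 and Smad6 were lower in DKO cells. In Zfp352-KO cells, mean TPM was 86.6% of the Parental mean for Id1, 85.8% for Id3, 81.1% for Smad6 and 90.2% for Smad7. In DKO cells it was 83.8% for Id3 and 79.7% for Smad6. The ligand gene Bmp4, the decoy receptor gene Bambi, Id2, Id4, Msx1 and Msx2 passed the test in neither comparison.

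**Figure D1:**
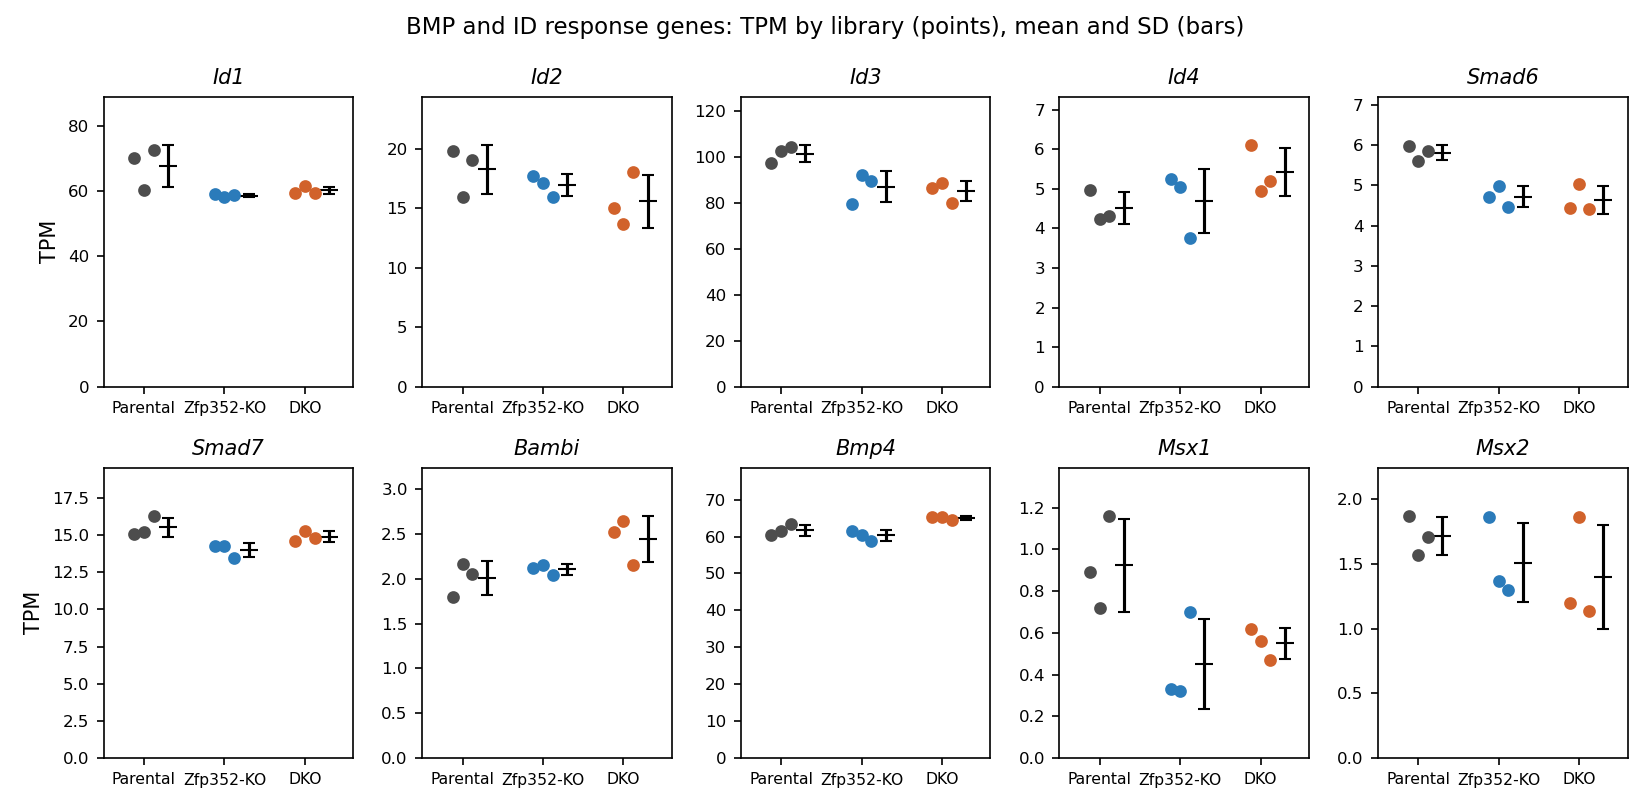
TPM of the 10 genes in each of the 9 libraries (points, one colour per genotype), with the mean and SD of the 3 libraries (bars); every axis starts at 0. For Id3 and Smad6 the Parental libraries lie above all 6 edited libraries, whereas Id2, Id4, Bambi and Msx2 overlap between Parental cells and each edited genotype.

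Of the 10 genes, 4 were lower and 0 higher in Zfp352-KO cells, where 3.64% of all tested genes were lower and 3.43% higher. In DKO cells 2 were lower and 0 higher, where 4.82% of all tested genes were lower and 3.65% higher. At an unadjusted p under 0.05, 5 genes of the set were lower in each comparison and 0 higher. No share of all tested genes at an unadjusted p is given here. Such counts, here and below, therefore cannot be set against the adjusted shares above. DESeq2 called 2 of the set lower in Zfp352-KO and 1 in DKO cells, and limma-trend on log2(TPM + 1) called 0 and 1. Neither called any of the set higher. Over all genes in Zfp352-KO cells, DESeq2 called 372 lower and 513 higher among 19817 genes with a fold change. Some of these had no adjusted p and could not be called. Shares of 19817 therefore cannot be set beside shares of the 14300 filtered genes. That limma-trend fit called 237 of 14300 lower and 122 higher in Zfp352-KO cells. Its counts over all genes in DKO cells stand in the last section. Those of DESeq2 in DKO cells are not given, so its 1 call there cannot be set against a share. The median log2 fold change of the set was -0.22 in Zfp352-KO and -0.24 in DKO cells, against -0.01 and -0.00 over all tested genes. The 2 comparisons share the Parental libraries, so their likeness is not independent evidence.

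These calls lay close to the threshold and most were lost when 1 library was left out. For Zfp352-KO against Parental, the number of genes called fell from 4 to 0 without Parental library 1, Parental library 3, Zfp352-KO library 1 or Zfp352-KO library 2. It was 1 without Parental library 2 and 2 without DKO library 2. With the DKO comparison the count fell from 2 to 0 without DKO library 3 and to 1 without Parental library 1, Parental library 2 or DKO library 1. Without Parental library 2 the reported calls of Id3 and Smad6 were both lost, and the 1 gene called was Id1, not called as reported. The direction of the 4 genes stayed the same under all 18 alternatives in both comparisons.

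Id3 was called in both edited genotypes. Its TPM was 97.02, 102.59 and 104.31 in Parental, 79.38, 91.82 and 89.54 in Zfp352-KO, and 86.27, 88.48 and 79.99 in DKO libraries. All 3 Parental libraries were above all 6 edited ones. The log2 fold change on counts was -0.26 ± 0.07 (SE) in Zfp352-KO (edgeR adjusted p = 0.0313) and -0.29 ± 0.07 in DKO cells (edgeR adjusted p = 0.0138). The DKO call was kept in 16 of 18 alternatives and lost without Parental library 2 (edgeR adjusted p = 0.0731) or DKO library 3 (0.0623). In the Zfp352-KO comparison it was kept in 10 of 18, and was lost without Parental library 1 (edgeR adjusted p = 0.0811), 2 (0.131) or 3 (0.0605) and without Zfp352-KO library 1 (0.175) or 2 (0.058).

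Id1, the ID gene most used as a readout of BMP signalling, had TPM of 70.13, 60.40 and 72.57 in Parental, 59.06, 58.05 and 58.70 in Zfp352-KO and 59.49, 61.50 and 59.46 in DKO libraries. The Zfp352-KO libraries lay below all Parental ones, by little below Parental library 2, and the DKO libraries overlapped with that library. The log2 fold change was -0.25 ± 0.07 (SE) in Zfp352-KO (edgeR adjusted p = 0.0297) and -0.21 ± 0.07 in DKO cells (edgeR adjusted p = 0.0567). Without Parental library 2, Id1 was called lower in DKO cells too (edgeR adjusted p = 0.0343). Its call in Zfp352-KO cells was lost without Parental library 1 (edgeR adjusted p = 0.148) or 3 (0.0809) and without Zfp352-KO library 1 (0.113) or 2 (0.11).

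The mRNAs of Id1 and Id3 are short, 934 and 953 bases against a median of 2803 for tested genes, and only 6.4% and 6.7% of tested genes are shorter. With the trend of each library on GC content and length removed, Id1 was at -0.11 in Zfp352-KO (edgeR adjusted p = 0.332) and -0.10 in DKO cells (0.368). Id3 was then at -0.12 in Zfp352-KO (edgeR adjusted p = 0.212), and at -0.18 in DKO cells, where it was still called (0.0317). In Zfp352-KO cells neither gene passed the test once this trend was removed.

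Id2 had TPM of 19.80, 15.92 and 19.11 in Parental, 17.76, 17.17 and 15.93 in Zfp352-KO and 15.03, 13.66 and 18.07 in DKO libraries. Every genotype overlapped with the others. Against Parental cells the log2 fold change was -0.16 ± 0.10 (SE) in Zfp352-KO (95% interval -0.37 to 0.06) and -0.27 ± 0.10 in DKO cells (-0.49 to -0.06; edgeR adjusted p = 0.107). Id4, the ID gene best known from neural progenitors, ran from 4.24 to 4.97 TPM in Parental, 3.76 to 5.26 in Zfp352-KO and 4.95 to 6.11 in DKO libraries. On the log2 scale the fold change was 0.00 ± 0.16 in Zfp352-KO cells (95% interval -0.32 to 0.33) and 0.23 ± 0.15 in DKO cells (-0.09 to 0.54). So within the ID family the point estimates for Id1, Id2 and Id3 were below 0 in both comparisons and that for Id4 was not, with intervals for Id4 that reach both sides of 0.

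Parental cells had 192 ± 8.58 TPM summed over the 4 ID genes (SD, n = 3), Zfp352-KO cells 167 ± 5.36 and DKO cells 166 ± 3.02. The lowest Parental library stood at 183.15 and the highest edited library at 172.09. Id1 and Id3 made up 85.7% to 88.99% of this sum in every library. The sum therefore follows the pair of genes described above. In bulk RNA, fewer cells with ID transcripts and less ID RNA per cell cannot be told apart.

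**Figure D2:**
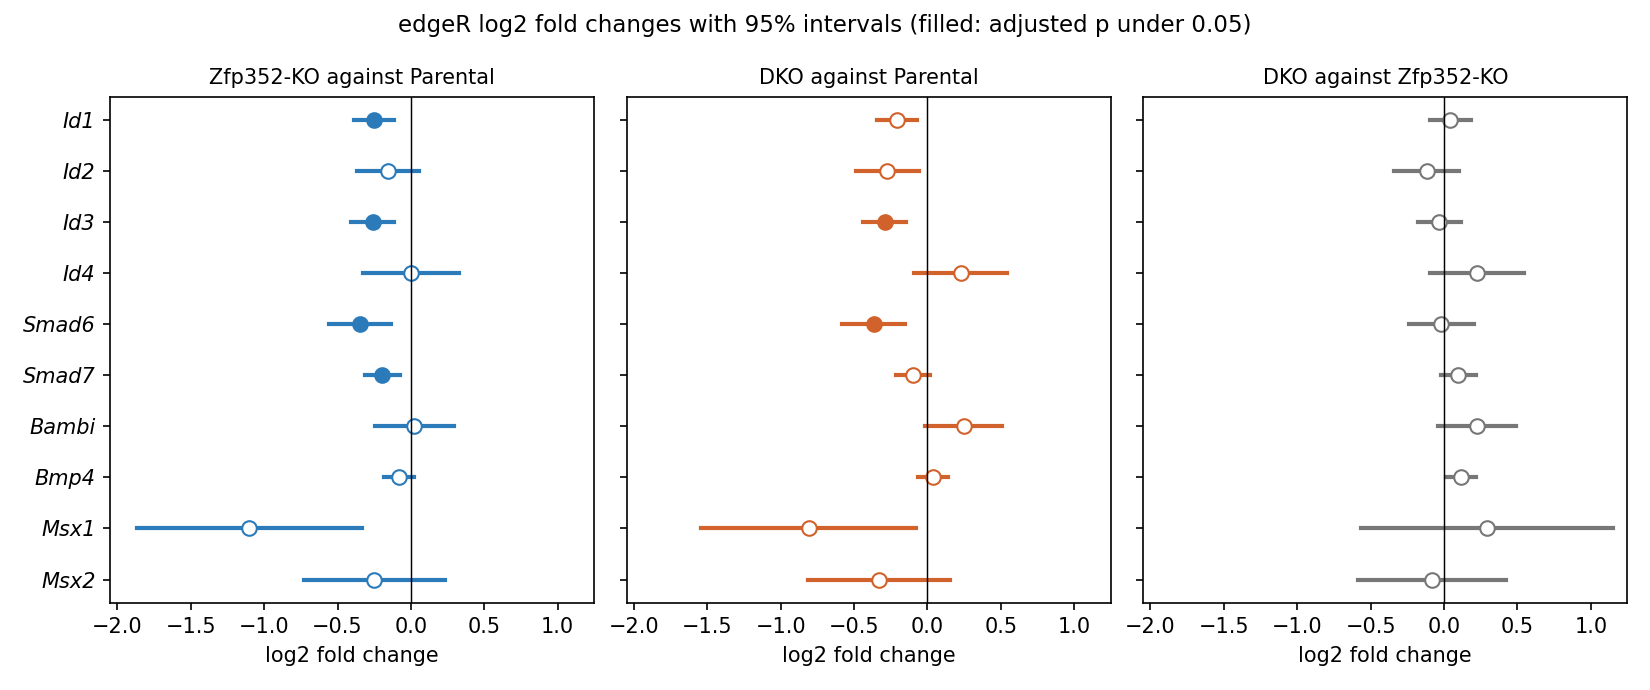
edgeR log2 fold changes of the 10 genes (points) with 95% intervals (lines) in the 3 comparisons; filled points have an adjusted p under 0.05. Id1, Id3, Smad6 and Smad7 are filled for Zfp352-KO against Parental, Id3 and Smad6 for DKO against Parental, and none for DKO against Zfp352-KO.

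Among the feedback inhibitors, Smad6 had the largest fold change of the called members. It stood at 5.98, 5.60 and 5.86 TPM in Parental, 4.70, 4.98 and 4.46 in Zfp352-KO and 4.45, 5.03 and 4.41 in DKO libraries. The Parental libraries were above all 6 edited libraries. Its log2 fold change was -0.35 ± 0.10 (SE) in Zfp352-KO (edgeR adjusted p = 0.0453) and -0.37 ± 0.10 in DKO cells (edgeR adjusted p = 0.031). With the GC and length trend removed it was at -0.24 (edgeR adjusted p = 0.166) and -0.29 (0.0641). In DKO cells the call was lost without Parental library 1 (edgeR adjusted p = 0.129) or 2 (0.0797) and without DKO library 1 (0.0696) or 3 (0.126). Among the 9 omissions it was kept in Zfp352-KO cells only without DKO library 1 or 3, with edgeR adjusted p from 0.0582 to 0.167 in the other 7 omissions.

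Smad7 had TPM of 15.10, 15.19 and 16.28 in Parental, 14.30, 14.25 and 13.44 in Zfp352-KO and 14.58, 15.29 and 14.82 in DKO libraries. Zfp352-KO libraries lay below the Parental ones and DKO libraries overlapped with them. Against Parental cells the log2 fold change was -0.19 ± 0.06 (SE) in Zfp352-KO (edgeR adjusted p = 0.0452), a call kept only without DKO library 3 among the 9 omissions, with edgeR adjusted p from 0.051 to 0.143 in the other 8. In DKO cells it was -0.10 ± 0.06 (95% interval -0.22 to 0.02). Bambi ran from 1.80 to 2.17 TPM in Parental, 2.04 to 2.16 in Zfp352-KO and 2.16 to 2.65 in DKO libraries. On the log2 scale the fold change was 0.02 ± 0.13 in Zfp352-KO and 0.25 ± 0.13 in DKO cells (95% interval -0.02 to 0.51; edgeR adjusted p = 0.236).

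Bmp4, the ligand gene with the highest level here, had TPM of 60.43, 61.47 and 63.38 in Parental, 61.59, 60.55 and 58.79 in Zfp352-KO and 65.22, 65.42 and 64.37 in DKO libraries. On this scale the DKO libraries lay above all others by a small margin. On counts, its log2 fold change was -0.08 ± 0.05 (SE) in Zfp352-KO (95% interval -0.18 to 0.02) and 0.03 ± 0.05 in DKO cells (-0.07 to 0.14). Bmp4 had the narrowest 95% intervals of the set in both comparisons.

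The low-level homeobox targets were the least precise. Msx1 had TPM of 0.89, 0.72 and 1.16 in Parental, 0.33, 0.32 and 0.70 in Zfp352-KO and 0.62, 0.56 and 0.47 in DKO libraries. Parental libraries were above the edited ones, though Parental library 2 and Zfp352-KO library 3 lay close together. The log2 fold change was -1.10 ± 0.37 (SE) in Zfp352-KO (edgeR adjusted p = 0.0726) and -0.81 ± 0.35 in DKO cells (0.159), from 26.77 and 32.84 summed expected counts. Without Zfp352-KO library 3, Msx1 was called lower in Zfp352-KO cells, at -1.60 (edgeR adjusted p = 0.0242). Msx2 ran from 1.57 to 1.87 TPM in Parental, 1.3 to 1.86 in Zfp352-KO and 1.14 to 1.86 in DKO libraries. Its log2 fold change was -0.25 ± 0.23 and -0.33 ± 0.23, with 95% intervals that include 0.

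**Figure D3:**
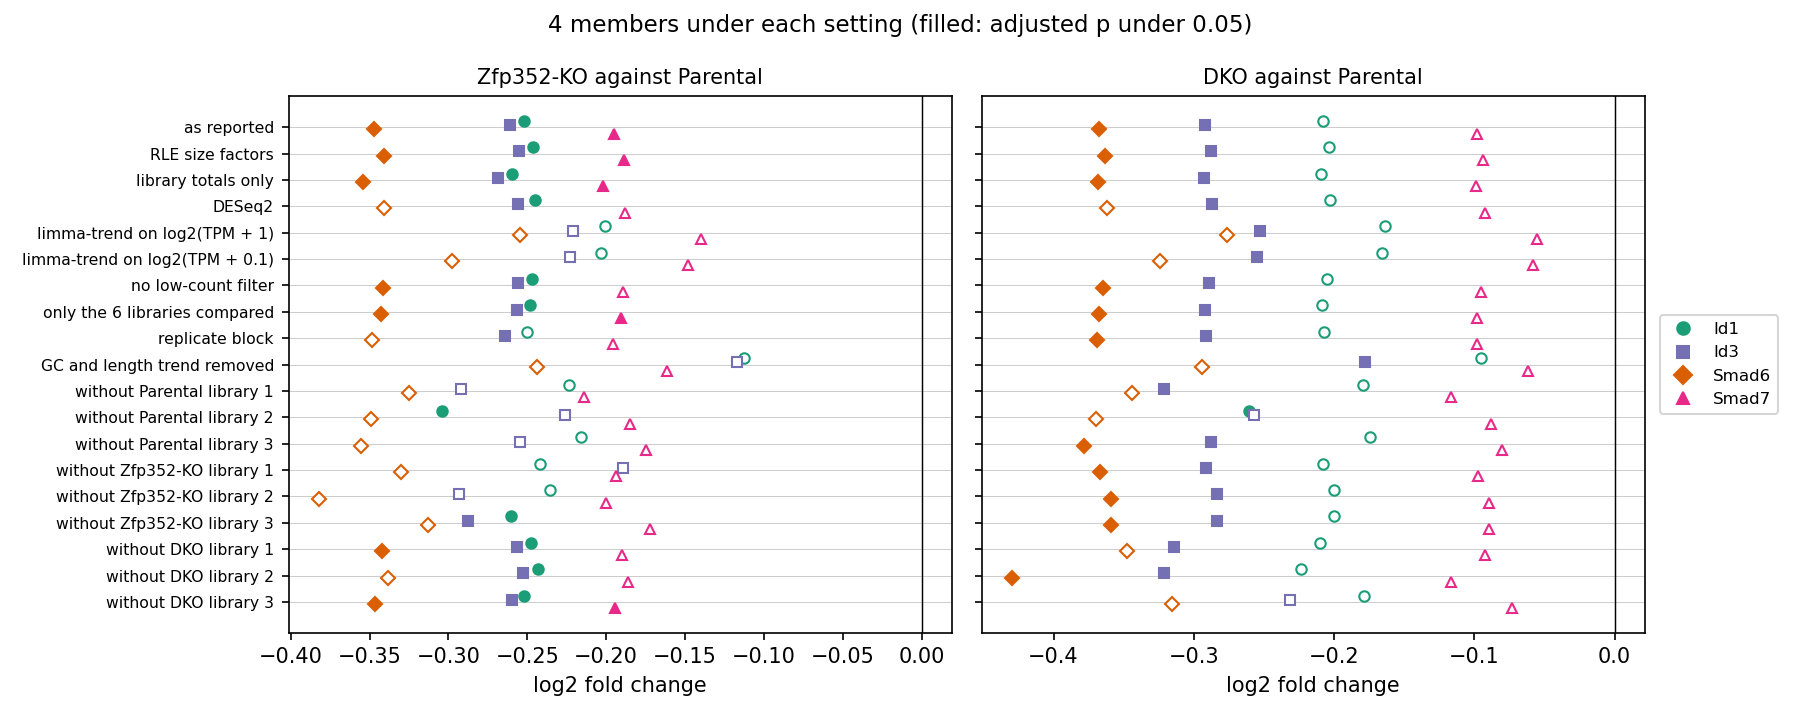
Log2 fold changes of Id1, Id3, Smad6 and Smad7 as reported and under 18 alternatives, for Zfp352-KO against Parental (left) and DKO against Parental (right); filled symbols have an adjusted p under 0.05. All values are below 0, the smallest sizes for Id1 and Id3 come with the GC and length trend removed, and many symbols are open.

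DKO cells were also compared with Zfp352-KO cells. The labels do not say that DKO cells were made from the Zfp352-KO line, and Zfp353 was not analysed. Zfp352 itself had 21 summed expected counts in Zfp352-KO and 5 in DKO cells (log2 fold change -1.99, edgeR adjusted p = 0.447). An effect of the Zfp353 deletion therefore cannot be told apart from other differences between these cells. edgeR called 0 of the 10 genes lower and 0 higher, where 0.0909% of all tested genes were lower and 0.014% higher. DESeq2 and limma-trend called none either, and 1 gene had an unadjusted p under 0.05, Bmp4 (log2 fold change 0.12 ± 0.05, SE; edgeR adjusted p = 0.716). For Id1 the difference was 0.04 (95% interval -0.10 to 0.19), for Id3 -0.03 (-0.18 to 0.12), for Smad6 -0.02 (-0.24 to 0.20) and for Smad7 0.10 (-0.02 to 0.22). Differences within these bounds are not settled at this depth. That Id1 and Smad7 were called in one edited genotype and not in the other is therefore not a shown difference between genotypes.

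Around these genes, the other parts of the BMP pathway were read from lists of genes grouped by role. Of 13 other BMP ligand genes, 5 passed the filter. None was called in Zfp352-KO cells (0 at an unadjusted p under 0.05, and 0 by DESeq2 or limma-trend), and 2 were lower in DKO cells by edgeR and 0 by DESeq2 or limma-trend. Bmp2, a close relative of BMP4, had 0.47, 0.52 and 0.51 TPM in Parental, 0.16, 0.41 and 0.39 in Zfp352-KO and 0.10, 0.22 and 0.24 in DKO libraries. Its log2 fold change in DKO cells was -1.50 ± 0.39 (SE; edgeR adjusted p = 0.0236). That of Bmp8b, a germ cell BMP gene, was -0.67 ± 0.19 (edgeR adjusted p = 0.0355). Both calls were lost without Parental library 1 (edgeR adjusted p 0.0749 and 0.141), DKO library 1 (0.0844 and 0.0536) or DKO library 2 (0.0551 and 0.0985). That of Bmp2 was also lost without Parental library 2 (0.0772), and that of Bmp8b without Parental library 3 (0.117) or DKO library 3 (0.0951). Bmp7 had the highest mean level of the list over all libraries, 1.83 TPM, far under Bmp4.

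All 11 receptor and co-receptor genes were tested. In Zfp352-KO cells edgeR, DESeq2 and limma-trend called none, while at an unadjusted p under 0.05 1 was lower and 5 were higher. Those 5, named after their values were seen, have long mRNAs against the median of 2803 bases for tested genes. They are Bmpr1a (5481), Bmpr1b (5176), Bmpr2 (11087), Acvr2a (5681) and Eng (3445). Over the 18 alternatives Bmpr1a ran from -0.016 to 0.17 there and Bmpr2 from -0.015 to 0.31, while Bmpr1b, Acvr2a and Eng stayed above 0. In DKO cells edgeR called 2 higher, and DESeq2 and limma-trend 1 each. Eng, which encodes the co-receptor endoglin, rose by 0.26 ± 0.06 on the log2 scale (SE; edgeR adjusted p = 0.0129), from 18.6 ± 0.983 TPM in Parental to 22.9 ± 1.16 in DKO cells (SD, n = 3). The call was lost without Parental library 1 (edgeR adjusted p = 0.0819) or DKO library 1 (0.0505). Acvr2a, an activin and BMP type II receptor gene, was at 0.32 ± 0.10 (edgeR adjusted p = 0.0497) and was not called without any 1 of the 3 Parental libraries (0.0923, 0.154 and 0.106) or without DKO library 2 (0.122) or 3 (0.198). In Zfp352-KO cells, where neither gene was called, Eng was called higher without Zfp352-KO library 3 (edgeR adjusted p = 0.0438), DKO library 1 (0.0406) or DKO library 3 (0.0308). There Bmpr1b, a type I receptor gene named after its values were seen, was at 0.61 ± 0.19 (SE; edgeR adjusted p = 0.0527) and was called higher without Parental library 3 (0.038), DKO library 1 (0.0499) or DKO library 3 (0.0364). Acvr2a was called higher in Zfp352-KO cells without Zfp352-KO library 2 (0.043), DKO library 1 (0.0418) or DKO library 3 (0.0353). The type I receptor gene Bmpr1a, the highest of the list, was at 20.6 ± 1.12 TPM in Parental, 23.2 ± 1.22 in Zfp352-KO and 23.5 ± 2.27 in DKO cells. Among the omissions it was called higher only without DKO library 1 (DKO against Parental, edgeR adjusted p = 0.0408).

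The signal-carrying Smad1, Smad5, Smad9 and Smad4 were called in neither comparison by any of the 3 tools, and none had an unadjusted p under 0.05. For Smad4, the shared partner with the highest level (41.8 ± 2.17 TPM in Parental cells), the log2 fold change was 0.05 ± 0.05 (SE) in Zfp352-KO and 0.03 ± 0.05 in DKO cells. Of 5 intracellular inhibitor genes, Tob1, an antiproliferative gene whose product binds BMP SMADs, rose in DKO cells by 0.27 ± 0.07 (edgeR adjusted p = 0.026). That call was lost without any 1 of the 3 Parental libraries (0.0683, 0.0673 and 0.0759) or DKO library 3 (0.124). Smurf1, Smurf2, Skil and Ski, a SMAD co-repressor gene with the highest mean of the list (41.7 TPM over all libraries), were not called as reported. In Zfp352-KO cells Skil was called in 1 of the 18 alternatives, which was not an omission of a library. The E protein genes Tcf3, Tcf4 and Tcf12, which encode dimer partners of ID proteins, were not called as reported, with Tcf3 at 93.4 ± 8.08 TPM in Parental, 94.1 ± 4.27 in Zfp352-KO and 89.6 ± 2.26 in DKO cells. Tcf4, named after its values were seen, was among the omissions called higher in Zfp352-KO cells only without Zfp352-KO library 3 (edgeR adjusted p = 0.048).

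Of 15 secreted antagonist genes 7 were tested, and Fst, Fstl3 and Nbl1, all at low levels, were called lower in DKO cells. In Zfp352-KO cells 2 were lower and 0 higher by edgeR (4 lower and 1 higher at an unadjusted p under 0.05). DESeq2 called 1 lower there and limma-trend 2, and neither called any higher. In DKO cells edgeR called 3 lower and 1 higher, and DESeq2 and limma-trend each called 3 lower and 0 higher. Fst, which encodes the activin and BMP binder follistatin, had 1.94, 2.15 and 1.74 TPM in Parental, 1.12, 1.40 and 1.00 in Zfp352-KO and 0.98, 1.23 and 0.87 in DKO libraries. The Parental libraries were above all edited ones. Against Parental cells the log2 fold change was -0.79 ± 0.20 (SE) in Zfp352-KO (edgeR adjusted p = 0.0286) and -0.96 ± 0.21 in DKO cells (0.0073). Fstl3, a follistatin-related gene, fell by 0.63 ± 0.14 in Zfp352-KO (edgeR adjusted p = 0.0146) and by 0.78 ± 0.15 in DKO cells (0.00237).

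Nbl1, which encodes the BMP antagonist DAN, had 1.82, 1.89 and 2.17 TPM in Parental, 1.08, 1.50 and 1.23 in Zfp352-KO and 0.51, 0.84 and 0.55 in DKO libraries. It fell in DKO cells by 1.65 ± 0.28 on the log2 scale (SE; edgeR adjusted p = 0.000847), and in Zfp352-KO cells its value of -0.65 ± 0.24 did not pass (0.107). The DKO calls of Fst, Fstl3 and Nbl1 were kept in all 18 alternatives. In Zfp352-KO cells, Fst was no longer called without Parental library 1 (edgeR adjusted p = 0.116) or 2 (0.121) or Zfp352-KO library 1 (0.115) or 3 (0.07). There Fstl3 was no longer called without Parental library 2 (0.0554) or 3 (0.0525) or Zfp352-KO library 1 (0.0855) or 2 (0.0568). Twsg1, the BMP-binding gene with the highest level of the list, was at 14.7 ± 1.32 TPM in Parental and 17.6 ± 0.429 in DKO cells (SD, n = 3; log2 fold change 0.22 ± 0.06, edgeR adjusted p = 0.0338). That call was lost without Parental library 1 (0.139) or 2 (0.135) or any 1 of the 3 DKO libraries (0.0501, 0.0958 and 0.0606). Among the omissions Twsg1 was called higher in Zfp352-KO cells only without Parental library 3 (0.0327), Zfp352-KO library 3 (0.0291) or DKO library 3 (0.0422).

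**Figure D4:**
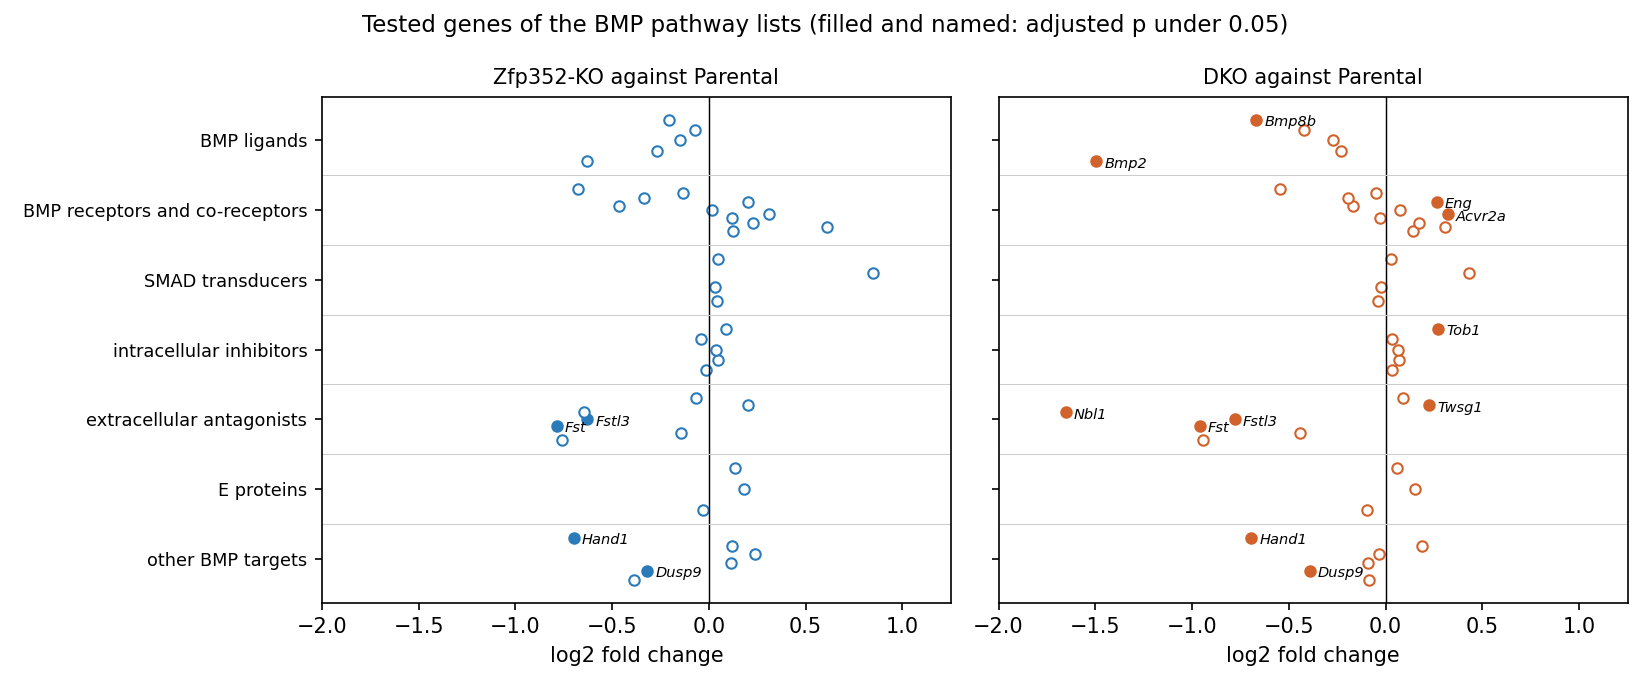
edgeR log2 fold changes of the tested genes in 7 lists of the BMP pathway outside the set (points, one row per list), for Zfp352-KO against Parental (left) and DKO against Parental (right); filled, named points have an adjusted p under 0.05. Fst and Fstl3 are filled among the antagonists and Hand1 and Dusp9 among other targets on both sides. In the DKO panel Nbl1, Bmp2 and Bmp8b are also filled below 0, and Eng, Acvr2a, Tob1 and Twsg1 above 0.

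Of 10 other BMP target genes 6 were tested, and the same 2, Dusp9 and Hand1, were lower in both edited genotypes and kept their calls in all 18 alternatives. Dusp9 encodes an ERK phosphatase known as a BMP target in mouse embryonic stem cells. It had 69.42, 62.68 and 68.88 TPM in Parental, 55.22, 54.61 and 56.45 in Zfp352-KO and 51.11, 50.10 and 56.32 in DKO libraries, with no overlap between Parental and edited libraries. On the log2 scale the fold change was -0.32 ± 0.05 (SE; edgeR adjusted p = 0.00114) in Zfp352-KO and -0.39 ± 0.05 (6.34e-05) in DKO cells. Hand1, a transcription factor gene of extraembryonic mesoderm and trophoblast, was at 9.02 ± 0.932 TPM in Parental, 5.68 ± 0.532 in Zfp352-KO and 5.73 ± 0.673 in DKO cells. It fell by 0.70 ± 0.12 in both (edgeR adjusted p = 0.00184 and 0.00112). The other 4 tested targets were not called.

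Markers of other cell types moved in the same comparisons. Of 10 fibroblast-type markers 8 were tested, and 5 were lower in each edited genotype and 0 higher. Col1a1, Col1a2, Tagln and Acta2 were lower in both, Thy1 only in Zfp352-KO and Col3a1 only in DKO cells. The summed TPM of all 10 ran from 89.39 to 100.7 in Parental, 55.48 to 65.11 in Zfp352-KO and 41.36 to 47.27 in DKO libraries. Tagln was the highest of them, at 51.8, 31.5 and 22.4 TPM in the same order. Lum was listed at 0 in all Parental and Zfp352-KO libraries, and the mean of Dcn was 0.133 TPM in Parental cells. Of 7 trophectoderm markers 6 were tested, and 3, Krt8, Krt18 and Cdx2, were lower in each edited genotype. Eomes, Gata3 and Tfap2c were called in neither. Tfap2c stood at 62.1 TPM in Parental, 64.2 in Zfp352-KO and 64.6 in DKO cells. The sum of all 7 ran from 308.4 to 347.8 in Parental, 234.6 to 237.5 in Zfp352-KO and 207.3 to 213 in DKO libraries. Most of it was Krt8 and Krt18, at 139 and 120 TPM in Parental cells. Of 5 mesoderm and primitive streak markers, of which 4 were tested, 2 were lower (T and Hand1, which is also among the BMP targets above), with sums of 13.36 to 15.49, 7.19 to 8.04 and 7.32 to 8.46. Of the 5 tested primitive endoderm and 2 tested neuroectoderm markers, edgeR called 0 in either comparison (1 neuroectoderm gene had an unadjusted p under 0.05). Whether such cells were present was not tested, nor was any part of them in the lower ID, inhibitory SMAD, antagonist and target genes. In bulk RNA, fewer cells with marker transcripts and less marker RNA per cell cannot be told apart. Of the fibroblast-type markers, Col1a2, Tagln and Acta2 were also called lower in DKO than in Zfp352-KO cells by edgeR. DESeq2 called 4 of that list lower and 0 higher there, and limma-trend called none. The edgeR calls of Col1a2, Tagln and Acta2 were kept in 6, 5 and 2 of the 9 omissions of a library.

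Nearest profiles were ranked by the root mean square difference of log2 CPM centred over the 9 libraries, with clone and predicted-gene names left out. Places of members count all tested genes. The genes nearest to Id1 were Fance (0.0339), Auh (0.0344) and Raly (0.0450), with mRNAs of 1960, 1345 and 1613 bases, and the nearest of the set was Smad7 (0.0745, place 180). Those nearest to Id3 were Lsm7 (0.0385), Atp5g1 (0.0411) and Siva1 (0.0434), with mRNAs of 468, 801 and 768 bases, and the nearest of the set was Smad6 (0.0871, place 252). Bmp4, whose own spread around its mean was 0.0551, was nearest to Bckdhb, Spg7 and Srsf2. For Id1, Id3 and Bmp4, no gene of the set was among the 3 nearest. With so few members among 14300 tested genes, that absence does not show whether the members follow each other.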

How the data were processed

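The members and lists were chosen with earlier results of these data known. Per the submitters' processing notes, the authors used RSEM 1.3.3, STAR 2.7.8a and Trim Galore 0.6.6 with the mm10 build. Their order, settings, annotation release and strand use: not given in the sources used here. Per the file headers, the authors deposited an expected count per gene (an RSEM estimate; 9.27% of values were not whole within 0.001) and the transcript length in bases. The authors deposited TPM beside them, per the file headers, which RSEM scales for transcript length and depth. After rounding, the expected counts entered edgeR 4.0.16 under R 4.3.3: TMM factors, filterByExpr, glmQLFit and a two-sided glmQLFTest, with all 9 libraries and genotype as the only term (residual df 6). p-values were adjusted by Benjamini-Hochberg over 14300 genes and the test was checked on simulated data. SE and 95% intervals come from the quasi-likelihood F statistic. The 18 alternatives comprised RLE factors, library totals alone, DESeq2 1.42.0, limma-trend (limma 3.58.1) on log2(TPM + 1) or log2(TPM + 0.1), no filter, the 6 libraries compared, a replicate block, removal of a local regression trend (span 0.3) on GC content (GENCODE GRCm38 transcripts, 14249 genes) and length, and omission of each library. Named genes are the members, called genes of each list (at most 4) and its highest, and the 3 nearest profiles of Id1, Id2, Id3 and Bmp4 (those of Id2 are not reported here). Protein sequences, sequence beyond the promoter windows and Zfp353 were not analysed here.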

Additional observations from a re-analysis of the deposited data

How the results depend on the processing

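Of the 10 genes, the number called lower in Zfp352-KO cells was 4 as reported, 2 with DESeq2, 0 with limma-trend on log2(TPM + 1), 0 with limma-trend on log2(TPM + 0.1), 1 with the replicate block and 0 with the GC and length trend removed. With 1 library left out it ran from 0 to 4. In DKO cells it was 2 as reported, 1 with DESeq2, 1 with either limma-trend fit and 1 with the GC and length trend removed, and 0 to 2 with 1 library left out. Same-numbered libraries of different genotypes did not deviate together (correlations of -0.0767 to 0.106 over 9 pairs), so the numbers do not pair them. The replicate block left 337 genes lower and 232 higher in Zfp352-KO cells, against 520 and 490 as reported. With the block, Id1, Smad6 and Smad7 were no longer called in Zfp352-KO cells. Over all genes, lower and higher counts in Zfp352-KO cells were 237 and 122 with limma-trend on log2(TPM + 1), 637 and 843 with no filter, 612 and 759 with the 6 libraries compared, and 160 and 50 without Parental library 1. In DKO cells, 689 and 522 as reported, they were 385 and 193 with that limma-trend fit, 804 and 800 with no filter, 534 and 333 with the block, 670 and 793 with the GC and length trend removed, and 326 and 123 without Parental library 1. For DKO against Zfp352-KO, 13 and 2 as reported, they were 44 and 22 with no filter and 45 and 10 with that trend removed. Of 535 refits of single genes, none reversed a call, 52 lost one and 2 gained one (Msx1 and Id1). The 535 include refits of genes not called as reported, which had no call to lose. The Zfp352-KO calls were kept in 10 of 18 alternatives for Id1, 10 for Id3, 6 for Smad6 and 4 for Smad7. The DKO calls were kept in 16 of 18 for Id3 and 10 for Smad6. DESeq2 gave no adjusted p for Msx1 or, in 2 comparisons, Msx2. Counts of under 60 per genotype limit Msx1.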
